A study of Chlorocebus aethiops with 12 samples.

Results

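Kruppel-like factors are zinc finger transcription factors that bind GC-rich and CACCC-type sites in promoters. The 10 members described here were the probes annotated with the accessions of KLF9, KLF10, KLF11 and KLF13, of KLF2, KLF4, KLF5, KLF6 and KLF7, and of KLF15. They were 10 of the 32379 accessions on the array, carried by 18 of its 41000 probes. The list was drawn from the family with earlier results of these data known, and other Kruppel-like factors were not analysed here. The gene symbols come from that list, since the array files give accessions only.

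The RNA came from COS-1, a line of African green monkey kidney fibroblasts, and was hybridised to one-colour arrays of human probes, 3 per group in 4 groups. Every group, controls included, expressed S211A, a glucocorticoid receptor (GR) in which alanine replaces a serine that is normally phosphorylated. S211A+MDFIC cells also received MDFIC, a protein that binds the receptor. Both kinds of cells were given 100 nM dexamethasone (Dex, a synthetic glucocorticoid) for 6 h, and vehicle as the control. The labels call the 3 samples of a group biological replicates. The signal is an average over a culture, so that a larger share of responding cells and a larger response per cell cannot be told apart. Markers of the cell line and the levels of the transfected genes were not analysed here, since their accessions are not paired with symbols.

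Some members of the family are textbook hormone targets. GR, once bound by ligand, acts as a transcription factor, and KLF9 and KLF15 are known GR targets in several tissues. KLF9, KLF13, KLF10 and KLF11 recruit the SIN3A corepressor and act largely as repressors. KLF2, KLF4, KLF5, KLF6 and KLF7 act often as activators, with roles in cell growth and differentiation.

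Each value below is the log2 of the processed signal relative to the 75th percentile of its array, so that 0 is the signal of that percentile and a difference of 1 is a doubling. Each accession was represented by its brightest probe over the 12 arrays. That probe was well above background on all 12 arrays for each of the 10 members, so that no value given for these probes is a bound. Levels are compared within a probe and never between probes, since brightness also depends on the probe. Groups were compared with limma, a linear model fitted to all 24586 accessions that passed the filter on dim probes, with Benjamini-Hochberg adjustment over all of them, and changes with an adjusted p under 0.05 were called.

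The arrays lay on 3 slides of 4, and the slides are not balanced over the groups. S211A Dex replicate 1 shared slide 1 with all S211A vehicle arrays. S211A Dex replicates 2 and 3 shared slide 2 with replicates 1 and 2 of S211A+MDFIC vehicle. The S211A+MDFIC Dex arrays shared slide 3 with replicate 3 of their vehicle group. On slide 1, 67.8% to 71.7% of probes were well above background, against 76.2% to 80.6% on slides 2 and 3. With slide as a block in the fit, the Dex change in S211A cells rests on slide 1, with 1 Dex array, and that in S211A+MDFIC cells on slide 3, with 1 vehicle array. The estimate with the block is therefore the same as the difference within that slide, and only its error differs.

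The first question is what Dex did to these factors in cells with the S211A receptor, without and with MDFIC. In S211A cells KLF9 rose and KLF11 fell, and the other 8 did not pass the test. In S211A+MDFIC cells KLF9 rose again, and KLF11, KLF10, KLF2 and KLF5 fell. The 2 of 10 called in S211A cells stand beside 6.5% of all accessions tested, made up of 4.31% that rose and 2.2% that fell. The 5 of 10 called in S211A+MDFIC cells stand beside 9.99%, made up of 6.26% that rose and 3.73% that fell. Groups without overlap were common on these arrays. In S211A cells 3 members lay wholly above vehicle and 2 wholly below, beside 14.5% and 11.4% of all accessions. In S211A+MDFIC cells these were 1 and 4 members, beside 18.7% and 12.9%. The median change of the 10 was -0.07 in S211A cells, against 0.02 over all accessions, and -0.10 in S211A+MDFIC cells, against 0.05. The slide block turned the median in S211A cells to 0.03, against -0.02 over all accessions, with 7 of the 10 members above 0. With slide as a block KLF9 alone passed in S211A cells, beside 2.69% of all accessions, and KLF9 and KLF11 passed in S211A+MDFIC cells, beside 2.43%. Fits within 1 slide have an arm of 1 array. Within slide 1 limma called 0 of the 10, beside 0.138% of all accessions, with 3 at an unadjusted p under 0.05, beside 13.2%. Within slide 3 it called no accession of any kind, so that the 0 of 10 there says nothing of the members, and 2 had an unadjusted p under 0.05, beside 8.31%.

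**Figure D1:**
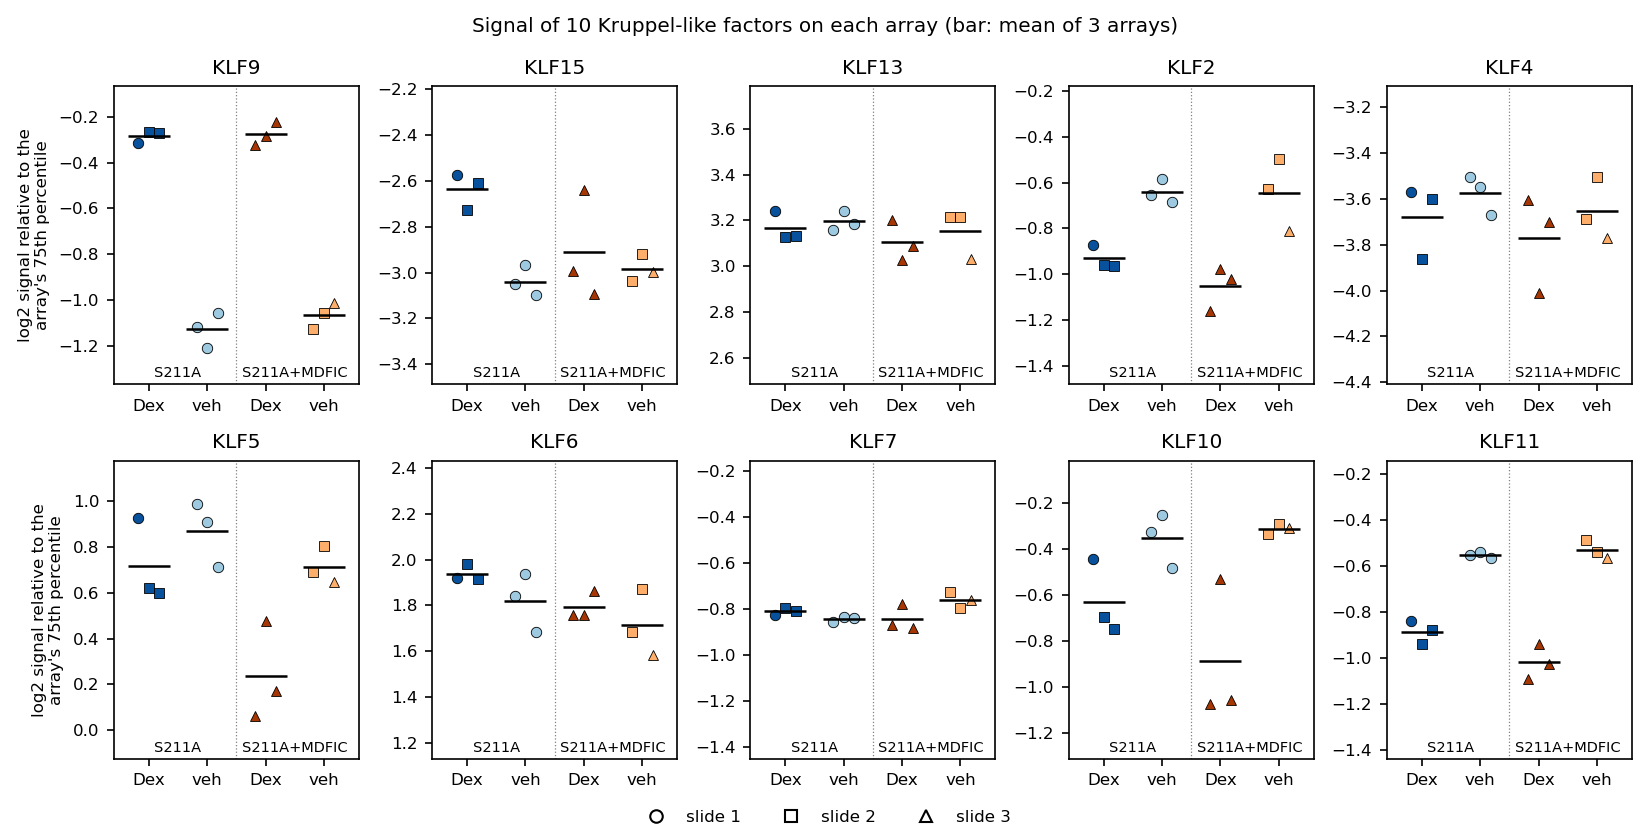
Log2 signal relative to the array's 75th percentile (vertical axis, the same span in each panel) of the 10 factors on the 12 arrays, with Dex left of vehicle in each kind of cells. Points are arrays, their shape gives the slide, and bars are means of 3 arrays. The 6 Dex arrays of KLF9 lie between -0.32 and -0.22, all above the 6 vehicle arrays.

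KLF9 (NM_001206), a repressor induced by glucocorticoids and by thyroid hormone, showed the largest change under Dex among the 10 members in both kinds of cells. In S211A cells it stood at -0.31, -0.27 and -0.27 in Dex replicates 1, 2 and 3, against -1.12, -1.21 and -1.06 in vehicle replicates 1, 2 and 3. All 3 Dex arrays lay above all 3 vehicle arrays, with a gap of 0.74. On the linear scale the signal was 80.4%, 83.1% and 82.9% of the 75th percentile under Dex, against 46.1%, 43.3% and 48.1% under vehicle. KLF9 thus rose 1.79-fold under Dex, a log2 change of 0.84 with an SE of 0.05 (adjusted p = 1.49e-05 by limma), and 710 accessions had a larger fitted rise.

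The KLF9 values of S211A+MDFIC cells were -0.32, -0.28 and -0.22 under Dex, against -1.13, -1.05 and -1.01 under vehicle. The groups again did not overlap, and the arrays of both groups lay in about the same place as those of the S211A groups. KLF9 rose 1.73-fold (log2 0.79, SE 0.05, limma adjusted p = 2.09e-05), with 695 accessions above it. With slide as a block the log2 changes were 0.81 without MDFIC (adjusted p = 0.00213) and 0.74 with it (adjusted p = 0.00404). The fits within slide 1 and within slide 3 give the same estimates by construction, with adjusted p of 0.129 and 0.227 by limma. Both rises passed in each of the 12 fits that left out 1 array.

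Ordered from high to low, KLF9 averaged -0.28 ± 0.05 under Dex with MDFIC, -0.28 ± 0.03 under Dex without it, -1.07 ± 0.06 under vehicle with MDFIC and -1.13 ± 0.08 under vehicle without it (SD, n = 3 each). Neighbours in this order differ beyond their spread only between the Dex groups and the vehicle groups. Over the 12 arrays, the accession whose profile was most like that of KLF9 was NM_024898, with a Pearson r of 0.996, followed by NM_133467 with 0.993, out of 24509 compared. Under Dex, NM_024898 was higher by 1.22 in S211A and 1.16 in S211A+MDFIC cells, and NM_133467 by 1.33 and 1.23. The 12 KLF9 values fall into a Dex and a vehicle cluster, which both profiles share, so that these r are a description of likeness over 12 arrays.

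KLF11 (NM_003597), a repressor first known as a gene induced by TGF-beta, moved the other way. In S211A cells it stood at -0.84, -0.94 and -0.88 under Dex, against -0.55, -0.54 and -0.56 under vehicle. The groups did not overlap and the vehicle arrays were close together. KLF11 fell by 0.34 (SE 0.05, limma adjusted p = 0.0043). With MDFIC KLF11 stood at -1.09, -0.94 and -1.03 under Dex, against -0.49, -0.54 and -0.57 under vehicle.

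The Dex arrays were again below the vehicle arrays, and KLF11 fell by 0.49 (SE 0.05, limma adjusted p = 0.000383). Its second probe showed -0.33 (adjusted p = 0.0617 over all probes) and -0.56 (0.00386). Both probes of this gene thus lay below vehicle by like amounts, and 3 of the 4 values passed. Under the slide block the brightest probe lost its call in S211A cells (log2 -0.29, limma adjusted p = 0.128). It held that in S211A+MDFIC cells (log2 -0.45, limma adjusted p = 0.027). At the second probe the block gave -0.41 (limma adjusted p = 0.221) and -0.54 (0.105), and neither passed. The call in S211A cells also ended without scaling between arrays (log2 -0.36, adjusted p = 0.18). Both calls held in each of the 12 fits with 1 array left out.

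KLF10 (NM_005655), the other factor known as an early gene of TGF-beta, has a single probe. In S211A+MDFIC cells it stood at -1.08, -0.53 and -1.06 in Dex replicates 1, 2 and 3, against -0.33, -0.29 and -0.31 in vehicle replicates 1, 2 and 3. All 3 Dex arrays were below the vehicle arrays, but Dex replicate 2 lay close to them. KLF10 fell by 0.58 (SE 0.14, limma adjusted p = 0.0326), the largest fall among the 10. Without Dex replicate 2 the change was -0.76 (limma adjusted p = 0.00201), in a fit that called 19.1% of all accessions, against 9.99% with all arrays. The call ended in 5 of the 12 fits that left out 1 array, namely those without a S211A+MDFIC vehicle array and those without Dex replicate 1 or 3, where the change was -0.59 to -0.48.

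In S211A cells KLF10 stood at -0.44, -0.70 and -0.75 under Dex, against -0.33, -0.25 and -0.48 under vehicle. Dex replicate 1 lay inside the range of the vehicle arrays, and the difference of -0.28 did not pass (SE 0.14, limma adjusted p = 0.325). Within slide 1, where Dex replicate 1 lies, the difference was -0.09. In S211A+MDFIC cells the change with slide as a block was -0.58, and it did not pass (adjusted p = 0.247). The KLF10 call there also ended with median centring (0.0581), without scaling (0.124), with no filter on dim probes (0.0524) and with the compared groups alone in the fit (0.0994).

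KLF13 (NM_015995), the closest relative of KLF9 by structure, did not pass in either kind of cells. It averaged 3.17 ± 0.06 under Dex and 3.20 ± 0.04 under vehicle in S211A cells (SD, n = 3 each). With MDFIC it averaged 3.11 ± 0.09 under Dex and 3.15 ± 0.11 under vehicle (SD, n = 3 each). The 95% interval of the Dex change ran from -0.18 to 0.12 without MDFIC and from -0.20 to 0.11 with it. A change in KLF13 as large as that of KLF9 lies outside both intervals.

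**Figure D2:**
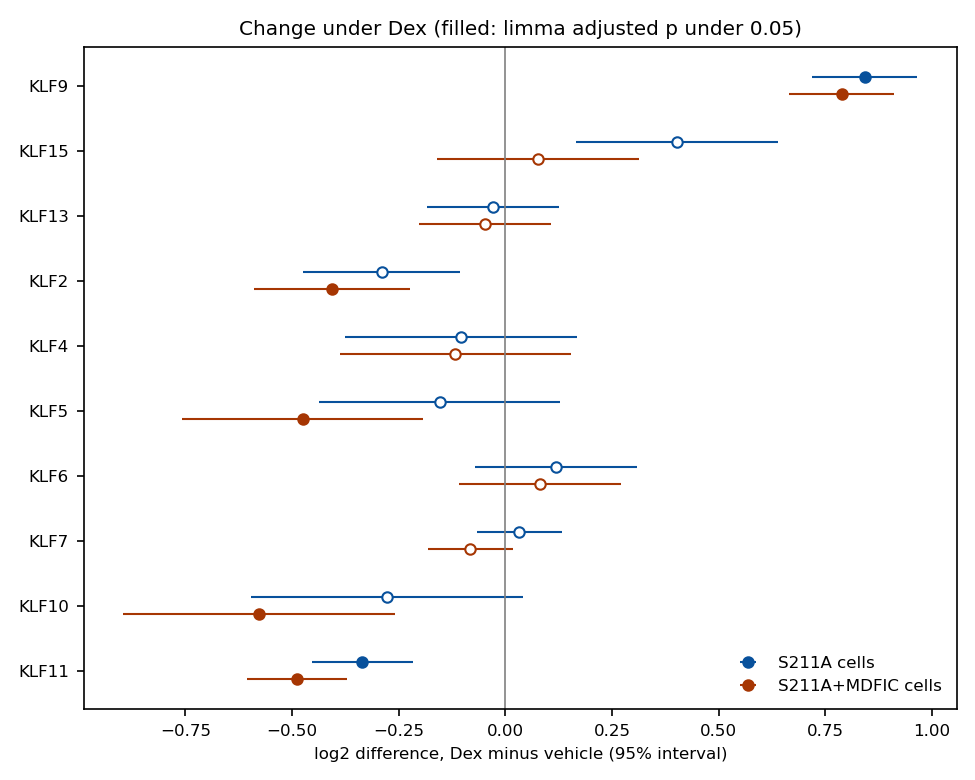
Log2 difference of Dex minus vehicle (horizontal axis) for each factor in both kinds of cells, with 95% intervals, and filled where the limma adjusted p was under 0.05. KLF9 stands at 0.84 and 0.79, the 2 called changes in S211A cells are KLF9 and KLF11, and 4 factors have called falls in S211A+MDFIC cells.

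Among the factors that often act as activators, KLF2 (NM_016270), which keeps endothelial cells and T cells quiescent, was lower under Dex in S211A+MDFIC cells. In S211A+MDFIC cells it stood at -1.16, -0.98 and -1.02 under Dex, against -0.63, -0.50 and -0.81 under vehicle. The groups did not overlap. KLF2 fell by 0.41 (SE 0.08, limma adjusted p = 0.0137). In S211A cells it stood at -0.87, -0.96 and -0.96 under Dex, against -0.66, -0.58 and -0.68 under vehicle.

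These S211A groups did not overlap either, but the difference of -0.29 did not pass (SE 0.08, limma adjusted p = 0.0721). It passed without S211A+MDFIC vehicle replicate 3 (adjusted p = 0.0399), an array that enters only through the estimate of spread. The second KLF2 probe gave -0.15 without MDFIC and 0.07 with it, neither called, so that the probes disagree. With the mean of its probes the change in S211A+MDFIC cells was -0.17 and was not called (adjusted p = 0.117). The slide block gave -0.24 (adjusted p = 0.291). The call also ended without S211A+MDFIC vehicle replicate 1 or 2 or Dex replicate 1 (log2 -0.40, -0.33 and -0.35). It ended without scaling and with the compared groups alone in the fit (adjusted p = 0.0691 and 0.0839).

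KLF5 (NM_001730), a factor that promotes growth of epithelial cells, stood at 0.06, 0.48 and 0.17 in S211A+MDFIC Dex replicates 1, 2 and 3, against 0.69, 0.80 and 0.65 in vehicle replicates 1, 2 and 3. Dex replicate 2 was again the Dex array closest to the vehicle arrays. KLF5 fell by 0.48 (SE 0.13, limma adjusted p = 0.0437). In S211A cells it stood at 0.93, 0.62 and 0.60 under Dex, against 0.99, 0.91 and 0.71 under vehicle. Those groups overlapped, and the difference of -0.15 did not pass (limma adjusted p = 0.56).

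The KLF5 call had the highest adjusted p of the 7. It passed in 3 of the 12 fits that left out 1 array, and lay between -0.60 and -0.39 over the 12, with adjusted p from 0.0117 to 0.141. The slide block gave -0.41 in S211A+MDFIC cells (adjusted p = 0.306) and 0.06 in S211A cells. The second KLF5 probe gave -0.05 in S211A+MDFIC and -0.11 in S211A cells and was not called, and with the mean of the probes the change in S211A+MDFIC cells was -0.26 (adjusted p = 0.0625). The KLF5 call ended as well with median centring (0.0702), without scaling (0.122), with no filter on dim probes (0.0684), with the compared groups alone (0.0867) and with the replicate number as a block (0.0523).

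KLF4 (NM_004235), known from reprogramming and epithelial differentiation, averaged -3.68 ± 0.16 under Dex and -3.57 ± 0.09 under vehicle in S211A cells (SD, n = 3 each). With MDFIC it averaged -3.77 ± 0.21 under Dex and -3.65 ± 0.14 under vehicle (SD, n = 3 each). The groups overlapped in both. Its Dex changes of -0.10 and -0.12 did not pass.

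KLF6 (NM_001300), a ubiquitous factor with growth-suppressing roles, averaged 1.94 ± 0.04 under Dex and 1.82 ± 0.13 under vehicle in S211A cells (SD, n = 3 each). With MDFIC it averaged 1.79 ± 0.06 under Dex and 1.71 ± 0.15 under vehicle (SD, n = 3 each). Its second tested probe gave changes of 0.06 and 0.10, against 0.12 and 0.08 at the first, and none passed. The other 2 KLF6 probes were well above background on 3 and 1 of the 12 arrays and were not tested.

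KLF7 (NM_003709), best known from neurons, had the smallest spread of the 10 under S211A vehicle. It averaged -0.81 ± 0.01 under Dex and -0.84 ± 0.01 under vehicle in S211A cells (SD, n = 3 each). With MDFIC it averaged -0.84 ± 0.06 under Dex and -0.76 ± 0.03 under vehicle (SD, n = 3 each). The 95% intervals of its Dex change, -0.07 to 0.13 and -0.18 to 0.02, were the narrowest of the 10. KLF7, KLF4, KLF6 and KLF13 did not pass in any comparison or under any setting tried.

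KLF15 (NM_014079), a GR target that acts in amino acid and glucose metabolism, stood at -2.57, -2.73 and -2.61 under Dex in S211A cells, against -3.05, -2.97 and -3.10 under vehicle. The groups did not overlap, but the difference of 0.40 did not pass (SE 0.11, limma adjusted p = 0.0544). In S211A+MDFIC cells it stood at -2.99, -2.64 and -3.09 in Dex replicates 1, 2 and 3, against -3.03, -2.92 and -3.00 in vehicle replicates 1, 2 and 3. Dex replicate 2 was high and the other 2 Dex arrays lay among or just below the vehicle arrays, and the difference was 0.08 (SE 0.11, limma adjusted p = 0.687).

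The difference of KLF15 in S211A cells crossed the threshold without S211A+MDFIC Dex replicate 2 (adjusted p = 0.0051) or replicate 3 (adjusted p = 0.0385), arrays that enter this comparison only through the estimate of spread. Of 13 other settings it passed in 3, those with the compared groups alone in the fit (adjusted p = 0.0433), with slide as a random block (0.0434) and with probes well above background on all 12 arrays (0.04). It did not pass in the other 10, where adjusted p reached 0.456. The value was 0.16 with the mean of the probes and 0.21 with normexp background correction, and 0.47 with slide as a fixed block (limma adjusted p = 0.257). That mean takes in the second KLF15 probe, which was dim in S211A cells. The second KLF15 probe was well above background on 6 of the 12 arrays, on 1 of the 3 S211A Dex arrays and on none of the 3 S211A vehicle arrays, so that no change is given for it in S211A cells. It passed the filter through S211A+MDFIC cells, where it was well above background on 3 Dex and 2 vehicle arrays and differed by -0.05, which did not pass.

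**Figure D3:**
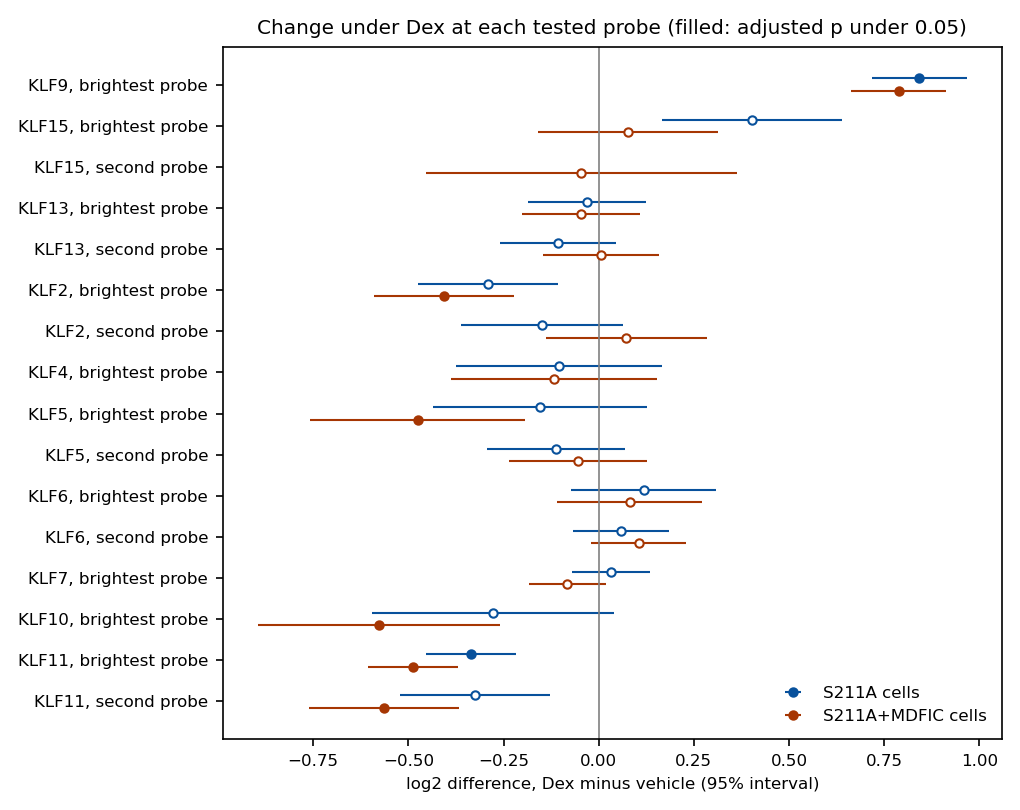
Log2 difference of Dex minus vehicle (horizontal axis) at each of the 16 tested probes of the 10 factors in S211A and S211A+MDFIC cells, with 95% intervals and filled where the limma adjusted p over all probes was under 0.05. Both KLF11 probes lie below 0 in both kinds of cells, whereas the second probes of KLF2 and KLF5 lie at 0.07 and -0.05 in S211A+MDFIC cells. The second KLF15 probe is not drawn for S211A cells, since it was not well above background in S211A vehicle.

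In all, 6 accessions of the family have more than 1 probe, and 16 of the 18 probes passed the filter. In a fit over all 31230 tested probes, 2 of the 16 were called for Dex in S211A cells, beside 6.18% of all probes, and 6 in S211A+MDFIC cells, beside 9.55%. The probes of KLF11, KLF6 and KLF5 had the same sign in both kinds of cells, for KLF6 without a call and for KLF5 with a call at 1 probe only. Those of KLF2, KLF13 and KLF15 had opposite signs in S211A+MDFIC cells. The second KLF13 probe differed by -0.11 without MDFIC and 0.01 with it, and neither passed.

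**Figure D4:**
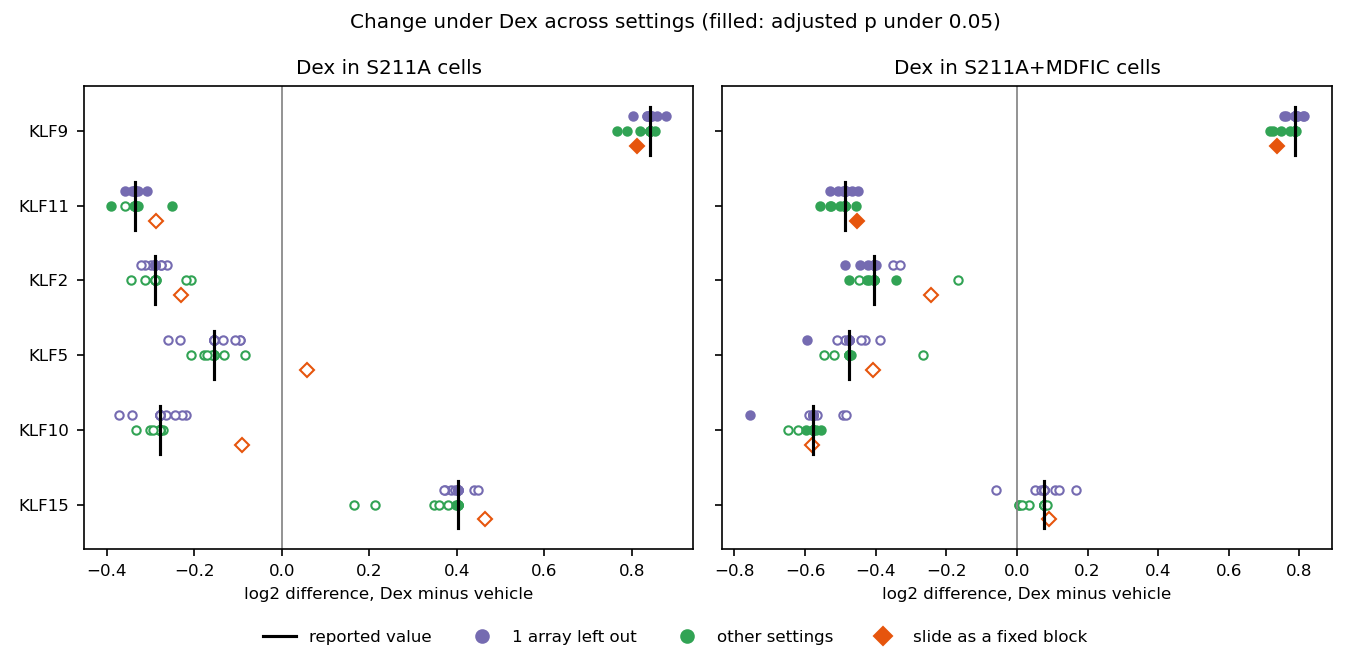
Log2 difference of Dex minus vehicle (horizontal axis) for KLF9, KLF11, KLF2, KLF5, KLF10 and KLF15 in S211A cells (left) and S211A+MDFIC cells (right) under each setting over all slides, filled where the adjusted p was under 0.05. KLF9 stays filled in both panels at 0.72 to 0.88, while KLF10 and KLF5 in S211A+MDFIC cells hold both filled and open points.

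The second question is whether MDFIC altered these factors, under vehicle or in their response to Dex. None of the 10 was called for S211A+MDFIC against S211A cells in either condition, nor for the difference between the Dex responses. The backgrounds are 0.948% of all accessions under vehicle, 0.427% under Dex and 0.268% for the difference between the responses, and 0.305%, 0.0488% and 0.159% with slide as a block, where none of the 10 passed either. Under vehicle KLF7 alone had all S211A+MDFIC arrays above all S211A arrays, beside 12.7% of all accessions, and under Dex 3 members had them all below, beside 7.96%. At the brightest probes, an unadjusted p under 0.05 was seen for 0 of 10 under vehicle, 3 of 10 under Dex and 0 of 10 for the difference. These stand beside 16.5%, 13.5% and 9.85% of all accessions. No slide holds both groups of either MDFIC comparison.

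Under vehicle the differences at the brightest probes lay between -0.16 for KLF5 and 0.08 for KLF7. KLF6 differed by -0.11 there. Its second tested probe, bright on all 12 arrays, differed by -0.19 (limma unadjusted p = 0.00645, adjusted p = 0.139 over all probes) and did not pass. With slide as a block that probe stood at -0.23 (limma adjusted p = 0.537). KLF9 averaged -1.07 ± 0.06 in S211A+MDFIC and -1.13 ± 0.08 in S211A cells (SD, n = 3 each), and its difference of 0.06 had a 95% interval of -0.06 to 0.18. KLF10 and KLF11 differed by 0.04 and 0.02, with intervals of -0.28 to 0.36 and -0.10 to 0.14. KLF2 differed by -0.01, with an interval of -0.19 to 0.18. With slide as a block 8 of the 10 differences were above 0, whereas 57.6% of all accessions were below 0, and none passed. KLF5 then stood at 0.19, KLF2 at 0.17, KLF13 at 0.13 and KLF10 at 0.32. Without scaling 9 of the 10 differences were above 0, with the median of all accessions then at 0.12.

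Under Dex the differences at the brightest probes lay between -0.48 for KLF5 and 0.01 for KLF9. KLF6 differed by -0.14 at its brightest probe and by -0.15 at its second tested probe, and neither passed. KLF5 averaged 0.24 ± 0.21 in S211A+MDFIC and 0.72 ± 0.18 in S211A cells (SD, n = 3 each), and the groups did not overlap. The difference did not pass (SE 0.13, limma adjusted p = 0.166). KLF15 and KLF11 differed by -0.27 (adjusted p = 0.32) and -0.13 (adjusted p = 0.327). These were the other 2 with an unadjusted p under 0.05 at the brightest probe. The second KLF11 probe, bright on all 12 arrays, differed by -0.35 (limma adjusted p = 0.171 over all probes). It differed by -0.35 with slide as a block too, and neither value passed. Without S211A+MDFIC Dex replicate 2, KLF5 stood at -0.60 (limma adjusted p = 0.0415) and KLF15 at -0.41 (limma adjusted p = 0.0331), and both passed. That fit called 2.97% of all accessions, against 0.427% with all arrays. With slide as a block the KLF5 and KLF15 differences were -0.27 and -0.22 and did not pass. The second KLF5 probe, bright on all 12 arrays, differed by -0.02 (adjusted p = 0.945 over all probes). With the mean of the probes the differences were -0.25 for KLF5 and 0.01 for KLF15, neither called. The KLF15 mean takes in its second probe, well above background on 1 of the 3 S211A Dex arrays.

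The difference between the Dex responses, that in S211A+MDFIC minus that in S211A cells, was -0.05 for KLF9, with a 95% interval of -0.23 to 0.12. The response itself was 0.79 with MDFIC and 0.84 without it. For KLF11, which had called falls in both kinds of cells, the difference was -0.15 (interval -0.32 to 0.01, limma adjusted p = 0.533). KLF10, KLF2 and KLF5 were called in S211A+MDFIC cells and not in S211A cells, but their differences of -0.30, -0.12 and -0.32 did not pass (limma adjusted p = 0.633, 0.74 and 0.569). Their intervals ran from -0.75 to 0.15, from -0.37 to 0.14 and from -0.72 to 0.08, so that no difference and a sizeable one both lie within them. These values are of the brightest probes. The second probes of KLF2 and KLF5 gave 0.22 and 0.06 for this difference, so that the probes of each disagree in sign. The second KLF11 probe gave -0.24, below 0 like the first. None of these second probes passed. KLF15 had the lowest unadjusted p of the 10 for this difference, with -0.33 and an interval of -0.66 to 0.01 (limma adjusted p = 0.513).

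**Figure D5:**
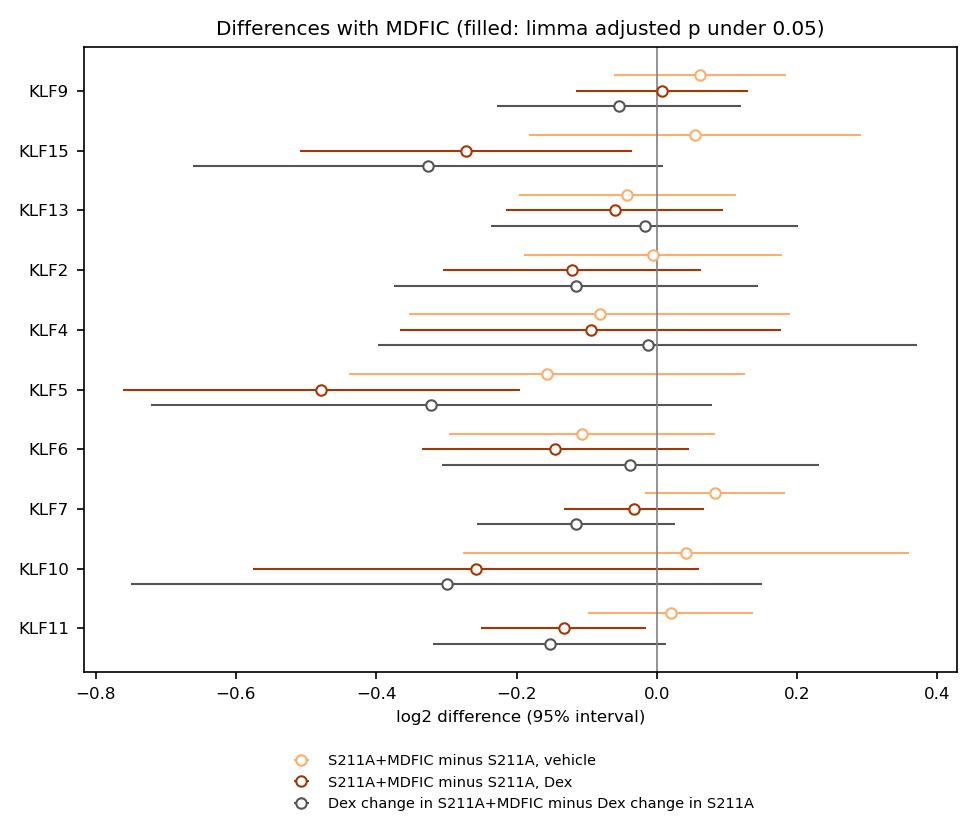
Log2 differences (horizontal axis, with 95% intervals) of S211A+MDFIC minus S211A cells under vehicle and under Dex, and of the Dex change in S211A+MDFIC minus that in S211A cells, for each factor. No point is filled, since none had a limma adjusted p under 0.05, and KLF9 lies at 0.06, 0.01 and -0.05.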

How the data were processed

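The 12 COS-1 RNA samples were hybridised, after Cy3 labelling, to human one-colour Agilent arrays, per the labels' protocols. The authors deposited each array's intensity on a linear scale, background-subtracted and detrended, per the file headers, by Feature Extraction 12.0.0.7. The submitters' processing notes give version 12. A deposited series-wide table holds this intensity too, without scaling between arrays. From here, log2 signals were set relative to each array's 75th percentile over all spots but controls, and 945 outlier spots were then left out. A probe was kept if every array of some group had it well above background and each group had at least 2 values. An accession was read at its brightest probe. The fit used limma 3.58.1 (R 4.3.3) with a mean for each of the 4 groups, no term for slide and two-sided tests. It was tested on simulated arrays without a slide effect. Of planted log2 changes of 0.5 for Dex in S211A cells it called 37%, and 10% with slide as a block. At a size of 1 these were 73% and 50%. For the difference between the responses they were 26% and 0% at 0.5, and 58% and 13% at 1. Figures used matplotlib 3.10.9.

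The 10 members and all settings were chosen with earlier results of these data known. All members are named whatever their values, with the 2 accessions most like KLF9. Further lists fixed by symbol (other Kruppel-like and SP factors, their cofactors, cell type markers), promoters and proteins were not analysed here. Alternatives changed the background correction, scaling, filters, probe rule, blocks and arrays used. The number of arrays limits the precision.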

Additional observations from a re-analysis of the deposited data

How the results depend on the processing

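Over 12 other settings, 2 within-slide fits added after seeing the data and 12 fits that left out 1 array, no called change of a member turned its direction. The count for Dex in S211A cells was 2. It was 1 without scaling (2.06% of all accessions called) and with slide as a fixed block (2.69%). It was 3 with probes well above background on all 12 arrays (7.62%), with the compared groups alone (3.41%) and with slide as a random block (7.31%). With 1 array left out it was 2 to 3 (3.71% to 7.61%). The count for Dex in S211A+MDFIC cells was 5. It was 3 with median centring (7.49% of all called), with no filter on dim probes (5.64%) or with the mean of the probes (9.73%), and 2 without scaling (2.11%), with the compared groups alone (5.08%) or with slide as a fixed block (2.43%), against 9.99% in the reported fit. With 1 array left out it was 2 to 5 (4.8% to 19.1% of all called). It was 2 without S211A+MDFIC vehicle replicate 1 (4.8%) or 2 (5.12%) or Dex replicate 1 (6.26%). Without vehicle replicate 3 (6.75%) or Dex replicate 3 (5.38%) of those cells it was 3. Over the member probes, the slide block took the counts from 2 to 1 in S211A and from 6 to 2 in S211A+MDFIC cells. Over all 31230 tested probes it took them from 1929 to 794 and from 2983 to 686. The MDFIC comparisons and the difference between the responses stayed at 0 in all fits run, with 1 exception. That was 2 under Dex without S211A+MDFIC Dex replicate 2, beside 2.97% of all accessions. The fit with the compared groups alone could not be run for the difference between the responses, which uses all 4 groups. The cause of these changes was not tested.

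With the replicate number as a block (replicate block) the counts were 2 and 4, beside 5.12% and 8.36% of all accessions. KLF5 was lost (limma adjusted p = 0.0523), and no other call changed. With 3 arrays per group, these data do not settle whether the numbers pair the arrays. Deviations of same-numbered arrays correlated with r of -0.00833 to 0.155 for Dex in S211A and 0.00292 to 0.0521 for Dex in S211A+MDFIC. Over both MDFIC comparisons r was -0.259 to 0.246. For Dex in S211A 4 of 6 arrays correlated best with their own number, and for Dex in S211A+MDFIC 1 of 6.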

Other observations

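The difference between the Dex responses was below 0 for 10 of the 10 factors, where 47.6% of all accessions were below 0. The count was also 10 with median centring, quantile normalization or no scaling, beside 49.6% to 50.9% of all accessions. It was 9 with normexp background correction (38.5%), 8 with slide as a fixed block (43.5%) and 7 with the mean of the probes (46.6%), and 7 to 10 with 1 array left out. Over the 15 member probes that were well above background on all 12 arrays it was 11, and 9 with slide as a block. Over all tested probes, a wider set that holds dimmer ones too, 47.5% were below 0 without the block. No share was taken with the block or over all probes that bright. None of these differences was called, the factors were measured on the same 12 arrays, and no test was made of the count. In S211A+MDFIC Dex replicate 2, KLF10, KLF5 and KLF15 lay 0.54, 0.36 and 0.41 above the mean of the other 2 Dex arrays of that group, KLF4 lay -0.36 from it and KLF9 -0.01. These values were singled out after they had been seen.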
